A study of Mus musculus with 24 samples.

Results

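The let-7 family main strands are the 9 mouse microRNAs mmu-let-7a, mmu-let-7b, mmu-let-7c, mmu-let-7d, mmu-let-7e, mmu-let-7f, mmu-let-7g, mmu-let-7i and mmu-miR-98, named below without the species prefix. They were taken as the array probes that carry exactly these mature names, without passenger (star) strands, and make up 9 of the 558 mouse miRNA probes on the arrays. MicroRNA was measured in 3 sister lines of mouse mammary carcinoma: 4T1, which the labels call highly metastatic, 4TO7, called systemically invasive, and 67NR, called nonmetastatic. Each line had spent 6 days in 3D organotypic culture in a rigid or a compliant microenvironment, and received either TGF-beta (TGFb) or an agent that inhibits its type I receptor, the state that the labels name basal. This gave 12 groups of 2 arrays, named set 1 and set 2, on 5 slides. Every group received one of these 2 agents, so what TGFb did and what the inhibitor undid cannot be told apart. The labels do not say whether set 1 and set 2 were separate cultures, and p-values measure only the spread between these arrays.

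Let-7 was found in worms as a small RNA that times the passage from larval to adult cell fates, and its mammalian copies rise as cells differentiate. The mature strands pair through their seed with messenger RNAs such as those of Ras proteins, Hmga2 and Myc and lower their output, which is why the family is widely described as tumour suppressing. The proteins Lin28a and Lin28b block the maturation of let-7 precursors, and TGF-beta signalling drives the epithelial-mesenchymal transition in mammary cells.

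All 9 mature strands are 22 nucleotides long and share 1 seed, so they pair with largely the same targets. The sequences are shown because the members differ outside the seed by few bases, which bears on how separately an array can measure them. They are those of RefSeq (GRCm38.p6), written 5′ to 3′ with the seed, bases 2 to 8, in capitals:
let-7i: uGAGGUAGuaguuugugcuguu
let-7g: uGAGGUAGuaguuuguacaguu
let-7a: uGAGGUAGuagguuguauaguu
let-7b: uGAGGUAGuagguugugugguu
let-7c: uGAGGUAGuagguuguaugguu
let-7d: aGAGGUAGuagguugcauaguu
let-7e: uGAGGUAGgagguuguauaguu
let-7f: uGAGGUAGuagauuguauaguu
miR-98: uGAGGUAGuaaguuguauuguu

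Counted from 1 at the 5′ end, let-7c differs from let-7a by A19G alone, let-7e by U9G alone and let-7f by G12A alone. Let-7i differs from let-7a by 4 bases, G12U, A17G, U18C and A19U. The member nearest to let-7i is let-7g, which differs from it by G17A and U19A, while let-7d is 6 bases away. Of the 1679 mature mouse names in the RefSeq table, 11 carry this seed, and the other two, miR-1961 and let-7k, have no probe on the array. The sources used here do not give how far the probes tell the members apart, and the share of each signal that may come from a neighbour in sequence was not tested.

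In the RefSeq annotation the strands come from 12 hairpin genes, and most lie within 10000 bases of another microRNA on the same strand. Mirlet7a-1, Mirlet7f-1 and Mirlet7d form a group on chromosome 13, Mirlet7c-2 and Mirlet7b a pair on chromosome 15, and Mirlet7f-2 and Mir98 a pair on chromosome X. Mirlet7c-1 lies beside Mir99a on chromosome 16, Mirlet7e beside Mir125a on chromosome 17 and Mirlet7a-2 beside Mir100 on chromosome 9. Mirlet7i on chromosome 10 and Mirlet7g on chromosome 9 have no such neighbour. Positions are left out because the deposited array files carry no build.

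The arrays detected 313 to 357 of the 558 mouse miRNA probes, with a median log2 intensity of 7.29 to 7.87 before normalization, and precision is limited by the 2 arrays a group. Epithelial and other marker microRNAs were read as a check of the lines. Of the 6 epithelial markers, miR-200b, miR-200c and miR-429 were detected on all 8 4T1 arrays and on none of 4TO7 or 67NR. MiR-141 was detected on all 24 arrays, with a log2 level higher in 4T1 by 2.48 than in 67NR and by 2.43 than in 4TO7. MiR-200a was detected on 8 arrays of 4T1, 6 of 4TO7 and 1 of 67NR, and miR-205 on 2 arrays, both of 4TO7 with inhibitor. Of the 5 mesenchymal markers, miR-145, miR-199a-5p and miR-214 were detected on all 24 arrays, miR-143 on the 8 of 67NR alone, and the probe shared by miR-199a-3p and miR-199b on none. In 4T1 minus 67NR, miR-145 gave -1.08, miR-199a-5p -0.65 and miR-214 -0.88. The muscle marker miR-206 was detected on the 8 arrays of 67NR alone, miR-1 and miR-133a on none, the neural marker miR-124 on none and the liver marker miR-122 on all 24. The blood markers miR-223, miR-142-3p and miR-150 and the endothelial marker miR-126-3p were detected on no array, while the red cell marker miR-451 was detected on all 24.

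All 9 let-7 members were detected on all 24 arrays, the highest detection p being 3e-05 (miR-98), and all 9 passed the filter that left 365 probes to test. Their deposited relative intensity, sample over a synthetic reference, was 161 to 335 for miR-98 and 1052 to 4057 for let-7i. These levels belong to different probes and are not ranked. Values below are quantile-normalized log2 intensities, in which probes of the same rank on their arrays share 1 value, and differences are log2 differences from a limma fit of 12 group means. A difference counted as changed when its Benjamini-Hochberg adjusted p, over the 365 probes, was under 0.05. The residual SD between arrays of a group was lowest for let-7e, at 0.0582, and highest for let-7g, at 0.14.

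**Figure D1:**
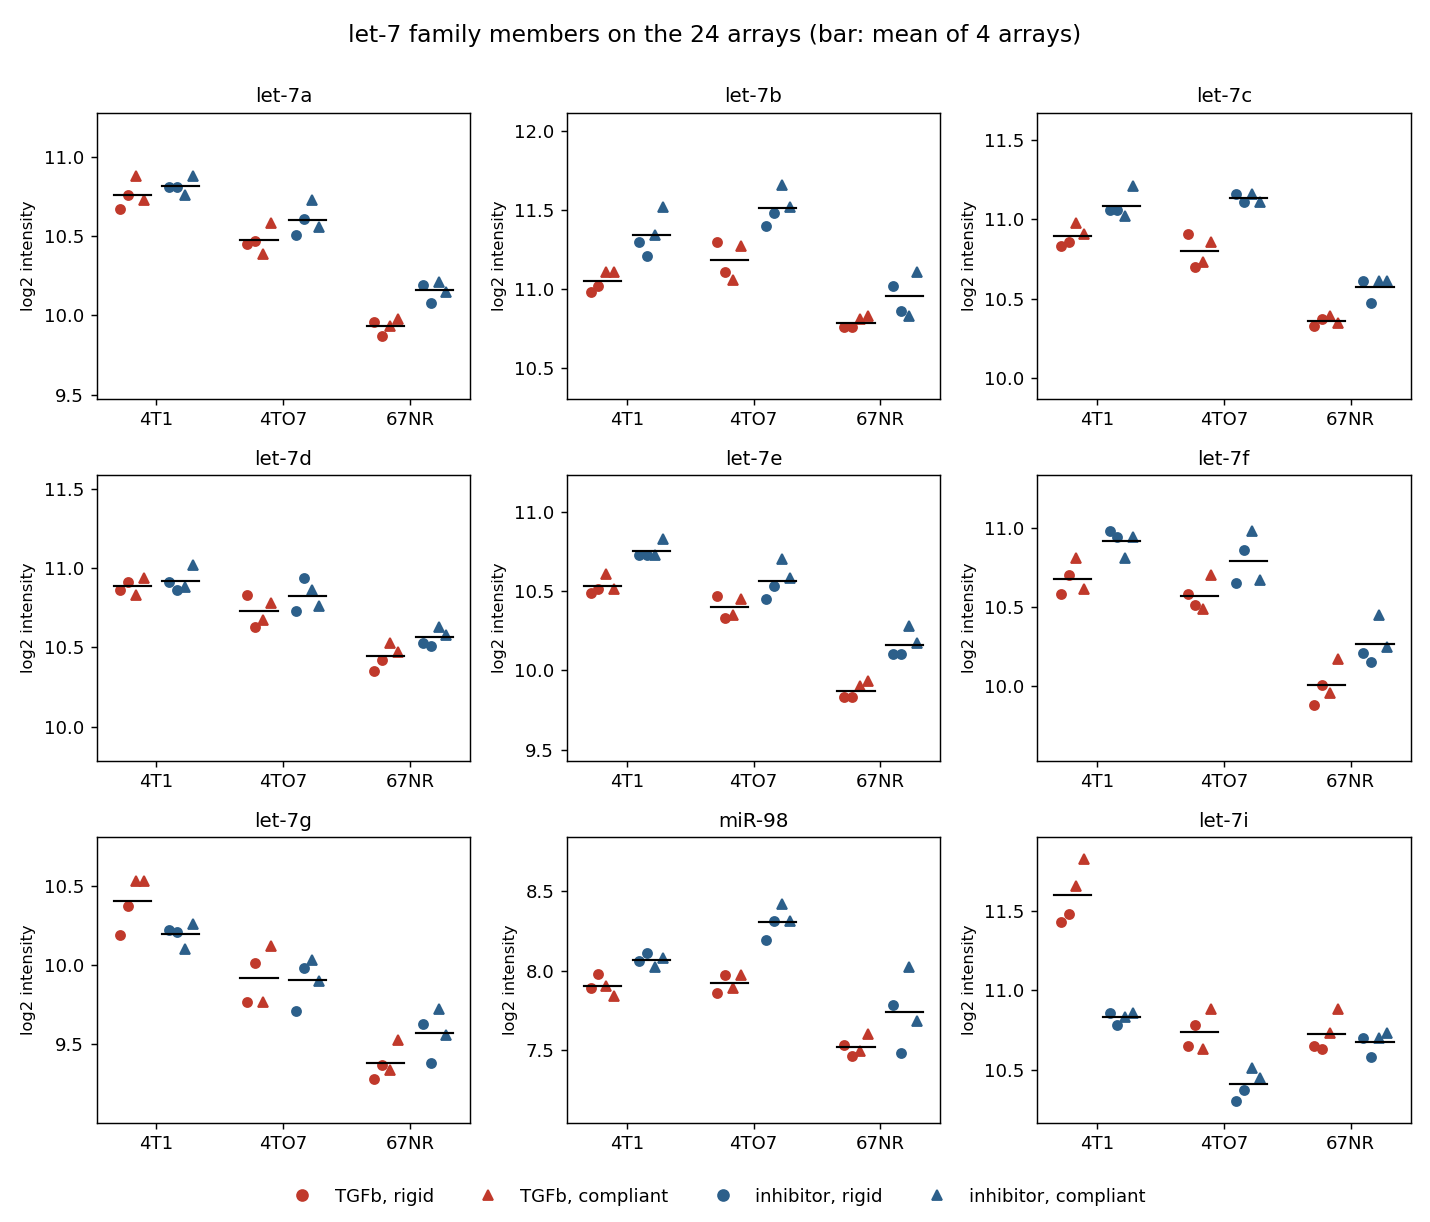
Quantile-normalized log2 intensity of each let-7 member (vertical axis, 1 panel a member, all spanning the same range) on the 24 arrays, by line, with TGFb in red and inhibitor in blue, circles for rigid and triangles for compliant, and bars for means of 4 arrays. The other 8 members sit higher in 4T1 and 4TO7 than in 67NR, most with the TGFb bar below the inhibitor bar, whereas let-7i stands at 11.43 to 11.83 in 4T1 with TGFb and at 10.88 or below on all other arrays.

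Set against the inhibitor over the 3 lines together, TGFb went with lower let-7a, let-7b, let-7c, let-7e, let-7f and miR-98 and with higher let-7i. These are 7 of 9 members changed, where 39.5% of the 365 tested probes changed, 21.4% upward and 18.1% downward. That split moved with the scaling: 78 probes were higher and 66 lower as given, against 43 and 84 with median scaling over all probes, 100 and 52 with median scaling over the always-detected probes, 110 and 50 in the authors' table and 18 and 7 with spike-in scaling. Let-7i changed by 0.38 (SE 0.035, adjusted p = 2e-07), a 1.30-fold rise, with 12 arrays a side. The 6 falls ran from -0.26 for let-7b (SE 0.04, adjusted p = 7.3e-05) to -0.13 for let-7a (SE 0.033, adjusted p = 0.0043). Let-7d, at -0.08 (adjusted p = 0.063), and let-7g, at 0.01 (95% interval -0.11 to 0.12), did not pass. The median over the 9 members was -0.23, beside 0.01 over all tested probes. RNA came from whole cultures, so fewer cells of a type and less RNA per cell cannot be told apart. The falls depended on the scaling: with arrays scaled by their spike-in probes the median of all tested probes was 0.12 and that of the members -0.16, and let-7i was the 1 member still called. Let-7d passed, at -0.10 to -0.09, without the 4TO7 rigid TGFb set 1, 4TO7 rigid inhibitor set 1 or 4T1 compliant inhibitor set 1 array.

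In 4T1 the rise of let-7i was larger than over the lines together. With TGFb it read 11.43 and 11.48 in rigid and 11.66 and 11.83 in compliant cultures. With inhibitor it read 10.86 and 10.78 in rigid and 10.83 and 10.86 in compliant cultures. The 4 TGFb arrays all lay above the 4 inhibitor arrays, which lay close together. The means were 11.60 ± 0.18 with TGFb and 10.84 ± 0.04 with inhibitor (SD, n = 4 each), a change of 0.76 (SE 0.06, adjusted p = 4.8e-08) or 1.70-fold. Among the rest of the family, let-7b fell by 0.29, let-7f by 0.24, let-7e by 0.23 and let-7c by 0.19, so that 5 of 9 members changed where 31.8% of tested probes did, 12.6% upward and 19.2% downward. As counts, 46 probes were higher and 70 lower, against 80 and 54 with median scaling over the always-detected probes, 77 and 55 in the authors' table, 21 and 8 without normalization and 17 and 5 with spike-in scaling. Arrays of let-7b, let-7c, let-7e and miR-98 (all lower with TGFb) and of let-7i (higher) did not overlap between treatments, 5 of 9 members where 21.1% of tested probes did not overlap.

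Let-7g, the nearest to let-7i in sequence, was the other member with a value above 0 in 4T1. It read 10.19, 10.37, 10.53 and 10.53 with TGFb, against 10.22, 10.21, 10.10 and 10.26 with inhibitor. The sets overlapped, and the change of 0.21 (95% interval 0.01 to 0.41) did not pass (adjusted p = 0.10). Let-7a, let-7d and miR-98 gave -0.05, -0.03 and -0.17 and did not pass. The fall of let-7c was not called without the 4T1 compliant inhibitor set 2 array (-0.14, adjusted p = 0.074), and that of let-7f (-0.25 to -0.19, adjusted p 0.06 to 0.13) without that array, either rigid inhibitor array, the rigid TGFb set 1 array or the compliant TGFb set 2 array. MiR-98 passed (adjusted p 0.036 and 0.037) without the 67NR compliant inhibitor set 1 or set 2 array.

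MiR-205 and miR-143 were detected on no 4T1 array, so their lack of change there cannot be read. Among marker microRNAs in 4T1, 1 of the 6 epithelial markers changed with TGFb, miR-200c by 0.22 (adjusted p = 0.0047), and 1 of the 4 tested mesenchymal markers, miR-199a-5p by 0.20 (adjusted p = 0.0021). The part of either in the let-7 values was not tested.

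In 4TO7 let-7i rose again, opposite to the 4 members that fell. It read 10.65 and 10.78 (rigid) and 10.63 and 10.88 (compliant) with TGFb, against 10.30 and 10.37 (rigid) and 10.51 and 10.45 (compliant) with inhibitor. All 4 TGFb arrays lay above all 4 inhibitor arrays, and the change was 0.33 (SE 0.06, adjusted p = 0.00067), or 1.26-fold. MiR-98, whose gene lies beside Mirlet7f-2, fell by 0.39, let-7c by 0.34, let-7b by 0.33 and let-7e by 0.17. Thus 5 of 9 members changed, where 21.4% of tested probes did, 9.59% upward and 11.8% downward. As counts, 35 probes were higher and 43 lower, against 27 and 53 with median scaling over all probes, 45 and 35 in the authors' table, 35 and 6 without normalization and 15 and 3 with spike-in scaling. Let-7c, for example, read 10.91, 10.70, 10.73 and 10.86 with TGFb, against 11.16, 11.11, 11.16 and 11.11 with inhibitor. Let-7b, let-7c and miR-98 (lower) and let-7i (higher) did not overlap, 4 of 9 members where 17.5% of tested probes did not.

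Let-7f in 4TO7, at -0.22 (adjusted p = 0.075), let-7a at -0.13, let-7d at -0.09 and let-7g at 0.01 did not pass. The call of let-7e was lost (-0.14 to -0.13, adjusted p 0.076 to 0.1) without the rigid TGFb set 2, compliant TGFb set 1, rigid inhibitor set 2 or compliant inhibitor set 1 array of that line, while let-7f passed without its rigid inhibitor set 1 (-0.28, adjusted p = 0.048) or compliant inhibitor set 2 array (-0.30, adjusted p = 0.022). Scaling by spike-in probes left no member called in 4TO7, put let-7i at 0.53 and turned the sign of let-7e, to 0.01. MiR-200b, miR-200c, miR-429 and miR-143 were detected on no 4TO7 array, so their lack of change there cannot be read. Of the 6 epithelial and 4 tested mesenchymal markers, 1 changed with TGFb in 4TO7, miR-205 by -0.86 (adjusted p = 4.9e-09). It was detected on no TGFb array, passed the filter only through 4TO7 arrays with inhibitor and so had to differ. Its part in the let-7 values was not tested.

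In 67NR the falls were of like size, and let-7i gave no call. Let-7i read 10.65, 10.63, 10.73 and 10.88 with TGFb, against 10.70, 10.58, 10.70 and 10.73 with inhibitor. The treatments overlapped, and the change was 0.05 (95% interval -0.08 to 0.17, adjusted p = 0.68). Let-7e fell by 0.29, let-7a by 0.22 and let-7c by 0.21, or 3 of 9 members changed where 11% of tested probes did, 3.29% upward and 7.67% downward. As counts, 12 probes were higher and 28 lower, against 5 and 41 with median scaling over all probes, 16 and 22 with median scaling over the always-detected probes, 35 and 26 in the authors' table, 2 and 37 without normalization and 2 and 9 with spike-in scaling. For these 3 the arrays of the treatments did not overlap, against 15.3% of tested probes without overlap. Let-7e, for example, read 9.83, 9.83, 9.90 and 9.93 with TGFb, against 10.10, 10.10, 10.28 and 10.17 with inhibitor.

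The members that did not pass in 67NR had values of -0.26 (let-7f, adjusted p = 0.056), -0.22 (miR-98, adjusted p = 0.054), -0.19 (let-7g), -0.17 (let-7b) and -0.12 (let-7d). Calls in this line turned on single arrays of its 8. Let-7a (-0.21 to -0.20, adjusted p 0.072 to 0.089) was not called without rigid TGFb set 2, compliant TGFb set 1, rigid inhibitor set 1 or compliant inhibitor set 1. Let-7c (-0.21 to -0.17, adjusted p 0.06 to 0.093) was not called without rigid TGFb set 1, compliant TGFb set 2, rigid inhibitor set 1 or compliant inhibitor set 1. Only let-7e was then called without rigid inhibitor set 1, and 5 members were called without compliant inhibitor set 2. MiR-98 passed without rigid or compliant inhibitor set 2 (-0.30 and -0.31), let-7b without compliant inhibitor set 1 (-0.24), and let-7f without compliant TGFb set 2, compliant inhibitor set 2 or either 4TO7 compliant inhibitor array (-0.31 to -0.26). None of the tested epithelial or mesenchymal markers was called with TGFb in 67NR. MiR-200b, miR-200c, miR-429 and miR-205 were detected on no 67NR array and miR-200a on 1, so their lack of change there cannot be read. The muscle marker miR-206 changed by -0.25 (adjusted p = 0.00023). Its part in the let-7 values was not tested.

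**Figure D2:**
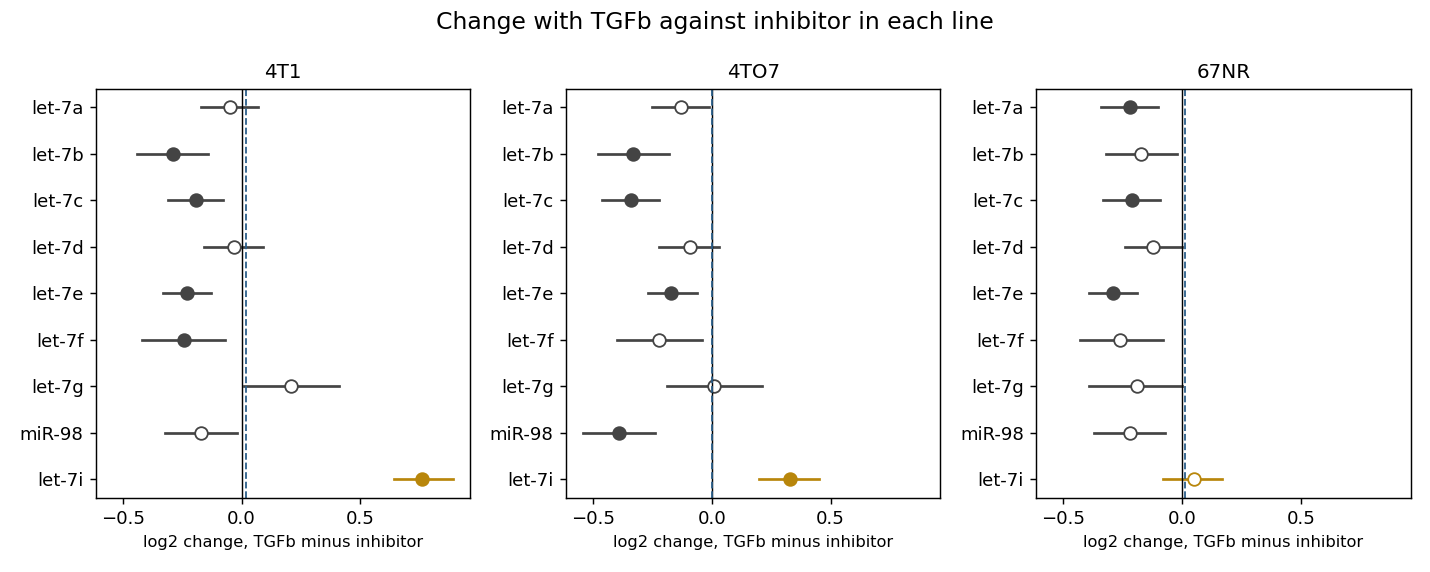
Log2 change of each member, TGFb minus inhibitor, in 4T1, 4TO7 and 67NR (points, 4 arrays a side) with 95% intervals (lines). Filled points had an adjusted p under 0.05, let-7i is in yellow, and the dashed line is the median of all tested probes. Let-7i lies to the right of 0 in 4T1 (0.76) and 4TO7 (0.33) and at 0.05 in 67NR.

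In 4T1 and 4TO7 the calls of the falls were lost under more scalings than that of let-7i. Without normalization between arrays, let-7i was the 1 member called in 4T1 and in 4TO7, and 6 members were called in 67NR. Scaling by spike-in probes left let-7i as the 1 member called in 4T1, and no member called in 4TO7 or 67NR. In 67NR let-7i had no call to lose, and it gave -0.17 (rigid) and -0.21 (compliant) without normalization. The members' median in 67NR was then -0.4, against -0.21 in the quantile-normalized fit.

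Whether the response to TGFb differed between the lines was tested directly. An F test called let-7i alone among the 9 members (adjusted p = 7.1e-05), where 14.5% of tested probes were called, and let-7g had an adjusted p of 0.10. The change of let-7i was 0.72 greater in 4T1 than in 67NR (SE 0.085, adjusted p = 2.3e-05), in a contrast that called 6.85% of tested probes. It was 0.44 greater in 4T1 than in 4TO7 (SE 0.085, adjusted p = 0.0023, 11.2% of tested probes called). It was 0.28 greater in 4TO7 than in 67NR (SE 0.085, adjusted p = 0.045, 11.5% of tested probes called). The first 2 differences were called without any 1 of the 24 arrays (0.67 to 0.76 and 0.37 to 0.49). The third was not called in 16 of those 24 fits (0.22 to 0.30, adjusted p 0.052 to 0.11). It was called without any of the 4 4T1 compliant arrays, 4TO7 rigid TGFb set 1, 4TO7 compliant TGFb set 1, 67NR compliant TGFb set 2 or 67NR rigid inhibitor set 2, and not without each of the others.

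The rise of let-7i in 4T1 was seen in both microenvironments. The share of tested probes called within a single line and microenvironment is not given. It was 0.63 (95% interval 0.45 to 0.81) in rigid and 0.90 (0.72 to 1.08) in compliant 4T1 cultures. In 4TO7 it was 0.38 (0.20 to 0.56) in rigid and 0.28 (0.10 to 0.46) in compliant cultures. The rigid 4TO7 value was called in 8 of 10 other settings, and not without the 4TO7 rigid TGFb set 2 or rigid inhibitor set 1 array (0.31 to 0.34). The compliant 4TO7 value was called in 4 of 10 other settings (0.21 to 0.55), and leaving out single arrays gave 0.15 to 0.40. It was not called (0.15 to 0.31) without the 4TO7 compliant TGFb set 2, either 4TO7 compliant inhibitor or the 67NR compliant inhibitor set 1 array. In 67NR it was 0.00 (-0.18 to 0.18) in rigid and 0.09 (-0.09 to 0.27) in compliant cultures. The test of a TGFb response that differs between rigid and compliant cultures, over the lines together, called no member and 0 of the 365 probes by limma, with 22 probes and none of the 9 members at an unadjusted p under 0.05. The members' values in that test ran from -0.09 for let-7i (95% interval -0.23 to 0.06) to 0.10 for miR-98 (-0.07 to 0.27).

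Setting let-7i against the mean of the other 8 members on the same array removes any scaling factor of the array as a whole. Only the change of this difference between groups is read, since its level depends on the probes. It was 1.09 to 1.43 with TGFb and 0.27 to 0.37 with inhibitor in 4T1 (medians 1.16 and 0.32). In 4TO7 it was 0.38 to 0.57 with TGFb and -0.10 to 0.02 with inhibitor. In 67NR it was 0.87 to 1.02 with TGFb and 0.61 to 0.72 with inhibitor. The treatments thus did not overlap in any of the 3 lines, 67NR included, where let-7i itself overlapped. In 67NR the mean change of the other 8 was -0.21 and that of let-7i 0.05, so most of that gap is the fall of the others. The share of tested probes without overlap against the same mean was not counted. The change of let-7i minus the mean change of the other 8 was 0.89 in 4T1, 0.53 in 4TO7 and 0.26 in 67NR, and 0.56 over the lines together. These are descriptions with no test, as let-7i was set apart with its values known.

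**Figure D3:**
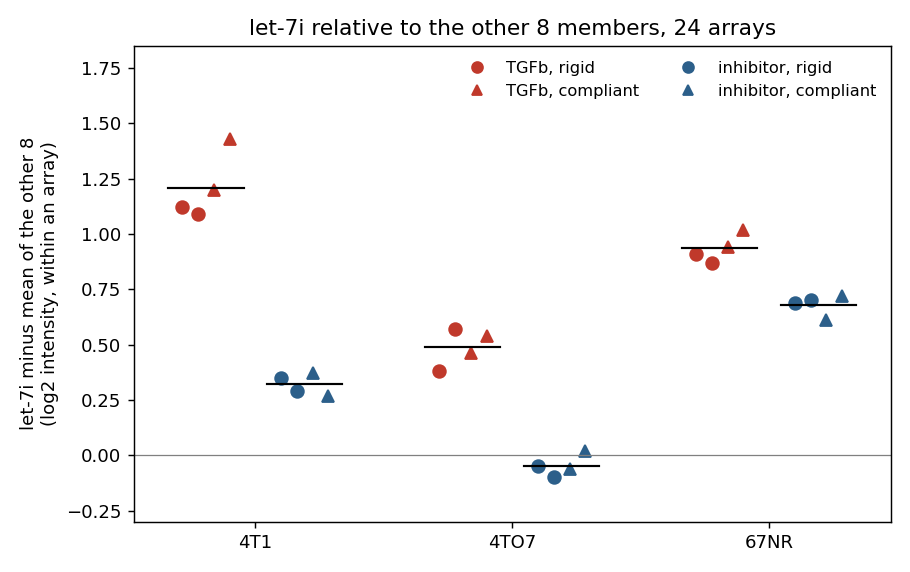
Let-7i minus the mean of the other 8 members, in log2 intensity, on each of the 24 arrays (points) by line, with TGFb in red and inhibitor in blue, circles for rigid and triangles for compliant, and bars for means of 4 arrays. TGFb arrays lie above inhibitor arrays in each line, and the gap is widest in 4T1.

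Of the 24 arrays, some slides held both treatments of 1 line and microenvironment, which gave 4 pairs, all of 67NR or 4TO7. In the rigid 4TO7 pair, 1 TGFb array was set against the mean of 2 inhibitor arrays. Within the 4 pairs, let-7b, let-7c, let-7e and miR-98 were lower with TGFb in 4 of 4, let-7c by -0.44 to -0.21. The share of tested probes lower in all 4 pairs was not counted. Let-7i was 0.44 higher with TGFb in both 4TO7 pairs and gave 0.03 and -0.07 in the 67NR pairs. No slide held such a pair of 4T1. With the slide as a fixed term, let-7i was called in 4T1 and 4TO7 and 2 members were called in 4T1 in all.

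MiR-99a, miR-99b, miR-100, miR-125a-5p and miR-125b-5p belong to families whose genes lie in clusters with let-7 genes. All 5 were detected on all 24 arrays. Of these, 4 of 5 fell with TGFb over the lines together, where 18.1% of tested probes did. MiR-125b-5p fell by 0.47, miR-100 by 0.37, miR-99a by 0.28 and miR-125a-5p by 0.20, while miR-99b gave 0.05 (adjusted p = 0.18). In 4T1 the same 4 were called lower (19.2% of tested probes were), in 4TO7 miR-99a, miR-100 and miR-125b-5p (11.8% were), and in 67NR miR-100, miR-125a-5p and miR-125b-5p (7.67% were). MiR-99b was called higher in 4TO7, by 0.24, where 9.59% of tested probes were. Over the lines together let-7d, let-7g and let-7i were the members not called lower. Mirlet7g and Mirlet7i have no microRNA within 10000 bases on the same strand, while Mirlet7d lies in the group on chromosome 13. The part of gene position was not tested, and values of the 5 neighbours under other scalings are not given.

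Of 7 passenger-strand probes, 5 were detected on no array. Let-7g* was detected on 10 arrays, 7 of 4T1 and 3 of 4TO7, and let-7i* on 6, 5 of 4T1 and 1 of 4TO7. Let-7i* changed by 0.04 (adjusted p = 0.65) and let-7g* by 0.13 (adjusted p = 0.11) with TGFb in 4T1 (SE 0.061 each), and neither passed. Let-7i* averaged 10.01 in 4T1 and 9.95 in 67NR, where neither strand was detected, and let-7g* 8.75 and 8.78. The 4T1 values thus lay near the level of undetected signal, and the lack of a call cannot be read as a lack of change.

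Rigid against compliant culture moved the family little. Over the lines together all 9 values were below 0, and let-7i alone passed, at -0.12 (SE 0.035, adjusted p = 0.02), 1 of 9 members where 21.9% of tested probes changed, 10.7% upward and 11.2% downward. As counts, 39 probes were higher and 41 lower, against 20 and 45 with median scaling over the always-detected probes, 8 and 5 without normalization and 0 and 3 with spike-in scaling. The others ran from -0.11 for let-7g to -0.04 for let-7c and let-7d, and the members' median was -0.06, beside 0.01 over all tested probes. Let-7i was not called without normalization between arrays, with spike-in scaling or with the slide as a fixed term, where its values were -0.18 to -0.12. Let-7e, at -0.08 (adjusted p = 0.054), passed (adjusted p 0.035 to 0.045) without any 1 of the 4T1 compliant TGFb set 2, 4T1 compliant inhibitor set 1, 4TO7 rigid TGFb set 1, 4TO7 compliant TGFb set 1, 4TO7 compliant inhibitor set 2 or 67NR compliant inhibitor set 2 arrays.

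Within single lines, rigid minus compliant values of let-7i were -0.16 (95% interval -0.28 to -0.03) in 4T1, -0.09 (-0.22 to 0.04) in 4TO7 and -0.12 (-0.25 to 0.01) in 67NR. By agent, 4T1 gave -0.29 (-0.47 to -0.11) with TGFb and -0.02 (-0.20 to 0.16) with inhibitor. These were -0.04 and -0.14 in 4TO7, and -0.17 and -0.08 in 67NR. Whether the response to TGFb differed between rigid and compliant cultures within a line was not tested. None of the 9 members passed in 4T1, 4TO7 or 67NR alone, where limma called 7.4%, 2.74% and 11% of tested probes, and 1, 0 and 1 members had an unadjusted p under 0.05. The rigid and compliant arrays overlapped for every member in each line, while 3.84%, 3.56% and 9.32% of tested probes did not overlap. Without the 67NR compliant inhibitor set 2 array, miR-98 passed in 67NR (-0.22, adjusted p = 0.035). Within 3 slide pairs, rigid minus compliant let-7i was -0.31 and -0.05 in 4T1 and 0.15 in 4TO7. The pair at -0.31 set 1 rigid array against the mean of 2 compliant arrays. An F test found no member whose rigidity effect differed between lines, where it called 8.22% of tested probes.

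Between the lines, most of the family was higher in both 4T1 and 4TO7 than in 67NR. These comparisons average 8 arrays a line over treatments and microenvironments and share the 67NR arrays. In 4T1 against 67NR all 9 members were called higher, where 89.6% of tested probes were called, 30.7% higher and 58.9% lower. Let-7g showed the greatest difference, at 0.83 (SE 0.066), with 10.10 to 10.53 (median 10.24) in 4T1 and 9.28 to 9.72 (median 9.46) in 67NR. Let-7a differed by 0.74 (SE 0.041), with 10.67 to 10.88 (median 10.78) in 4T1 and 9.87 to 10.21 (median 10.03) in 67NR. The smallest difference was that of let-7b, 0.33 (SE 0.049). With spike-in scaling let-7b, at 0.11, and let-7d, at 0.17, were not called, and the other 7 members were called in all 10 other settings. The members' median was 0.52, beside -0.22 over all tested probes. Arrays of let-7a, let-7c, let-7d, let-7e, let-7f and let-7g did not overlap between 4T1 and 67NR, 6 of 9 members where 63.3% of tested probes did not.

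In 4TO7 against 67NR, 8 members were called higher and let-7i was called lower, where 86.8% of tested probes were called, 29.9% higher and 57% lower (109 and 208 probes, against 60 and 234 with spike-in scaling). Let-7f was higher by 0.55, with 10.49 to 10.98 (median 10.66) in 4TO7 and 9.88 to 10.45 (median 10.16) in 67NR. Let-7d had the smallest of the 8 differences, 0.27. Let-7i was lower by 0.13 (SE 0.042, adjusted p = 0.01), with 10.30 to 10.88 (median 10.57) in 4TO7 and 10.58 to 10.88 (median 10.70) in 67NR, and the lines overlapped. The members' median was 0.48, beside -0.15 over all tested probes, and let-7a, let-7c, let-7e and let-7f did not overlap, 4 of 9 members where 50.7% of tested probes did not. Scaling by spike-in probes put the median of all tested probes at -0.38 and left 3 members called, let-7f and miR-98 higher and let-7i lower (-0.45), while let-7d turned to -0.04.

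**Figure D4:**
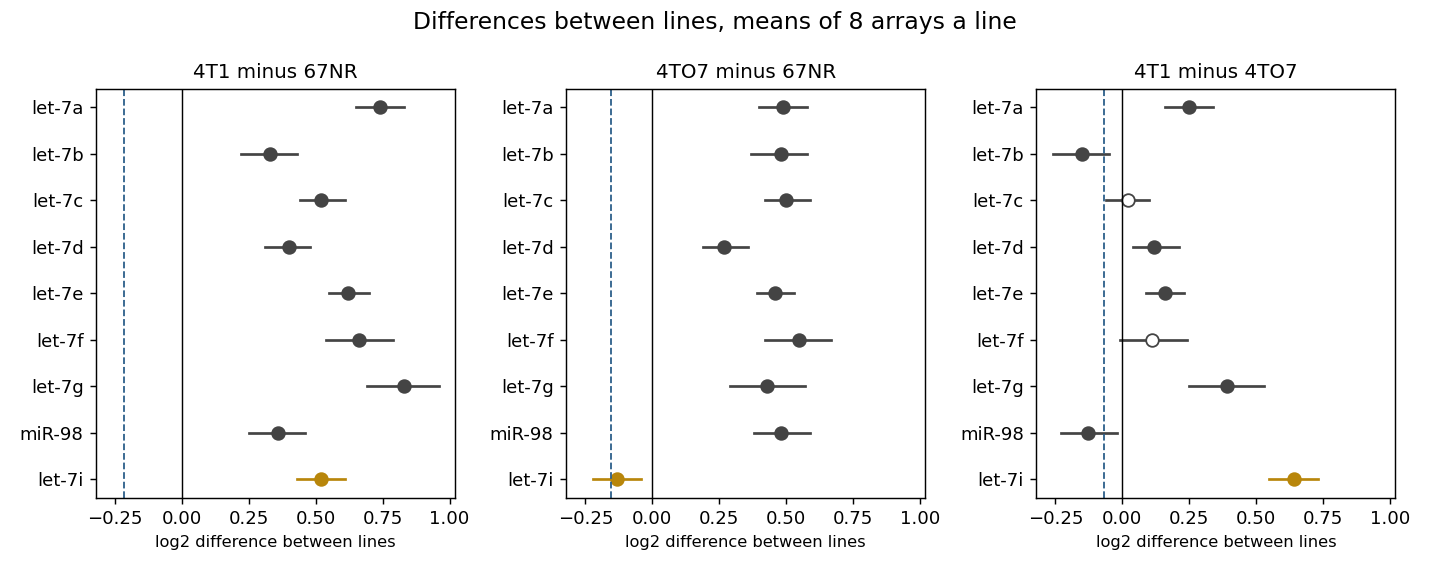
Log2 differences between lines for each member (points, 8 arrays a line) with 95% intervals (lines). Filled points had an adjusted p under 0.05, let-7i is in yellow, and dashed lines are medians of all tested probes. Let-7i is higher in 4T1 than in 4TO7 by 0.64 and lower in 4TO7 than in 67NR, where the other 8 members are higher.

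Between 4T1 and 4TO7 the members went different ways. Let-7i (0.64, SE 0.042), let-7g (0.39), let-7a (0.25), let-7e (0.16) and let-7d (0.12) were higher in 4T1, and let-7b (-0.15) and miR-98 (-0.13) were lower, or 7 of 9 members called where 63% of tested probes were, 23% higher and 40% lower. That direction turned with the scaling: 84 probes were higher and 146 lower as given, against 69 and 194 with median scaling over all probes, 68 and 198 with median scaling over the always-detected probes, 124 and 17 without normalization and 109 and 3 with spike-in scaling. Let-7c, at 0.02, and let-7f, at 0.11, did not pass. Over 10 other settings let-7a, let-7g and let-7i were called higher in all 10. Let-7d was called in 4 of them (0.00 to 0.31) and let-7e in 8 (0.05 to 0.35), and neither was called with median scaling of either kind. The fit with the slide as a fixed block and that with the replicate block each lost let-7b, let-7d and miR-98. No member was without overlap between these lines, where 14.8% of tested probes were. Scaling by spike-in probes, which put the median of all tested probes at 0.19 in place of -0.07, turned let-7b to 0.11 and miR-98 to 0.12. MiR-98 was not called in 8 of the 24 fits without 1 array (-0.12 to -0.11, adjusted p 0.062 to 0.079), those without 4T1 rigid TGFb set 1, compliant TGFb set 2, rigid inhibitor set 1 or compliant inhibitor set 1, or without 4TO7 rigid TGFb set 2, compliant TGFb set 2, rigid inhibitor set 2 or compliant inhibitor set 1. Let-7f passed without the last of these (0.15, adjusted p = 0.033).

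The standing of let-7i among the lines depended on the agent. With TGFb it averaged 11.60 in 4T1, 10.74 in 4TO7 and 10.72 in 67NR (SD 0.18, 0.12 and 0.11, n = 4 each), so that 4T1 stood apart and 4TO7 and 67NR did not differ beyond their spread. With inhibitor it averaged 10.84 in 4T1, 10.41 in 4TO7 and 10.68 in 67NR (SD 0.04, 0.09 and 0.07), with 4TO7 the lowest of the lines. In 4T1 with inhibitor its 4 arrays read 10.78 to 10.86, and the 4 of 67NR with inhibitor 10.58 to 10.73. The share of tested probes without overlap was not counted within 1 agent. Over both agents 63.3% did not overlap between these lines, while let-7i did. The tests of the response between the lines, given above, cover only whether a difference between lines changed with the agent. Differences between the lines with TGFb alone or with inhibitor alone were not tested, and their means and ranges are descriptions.

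Over the 12 group means, the other 8 members followed each other closely. Pearson's r among their 28 pairs was 0.526 to 0.988, with a median of 0.919, and let-7e and let-7f were the most alike. Between let-7i and each of the other 8, r was -0.257 (let-7b) to 0.655 (let-7g), with a median of 0.184. These r are descriptions over 12 points that share lines, treatments and array normalization. Let-7g was the pair of let-7i with the fewest base differences, 2, and the highest r, and let-7b, with 3, the pair with the lowest r. The part of likeness in sequence in these r was not tested.

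**Figure D5:**
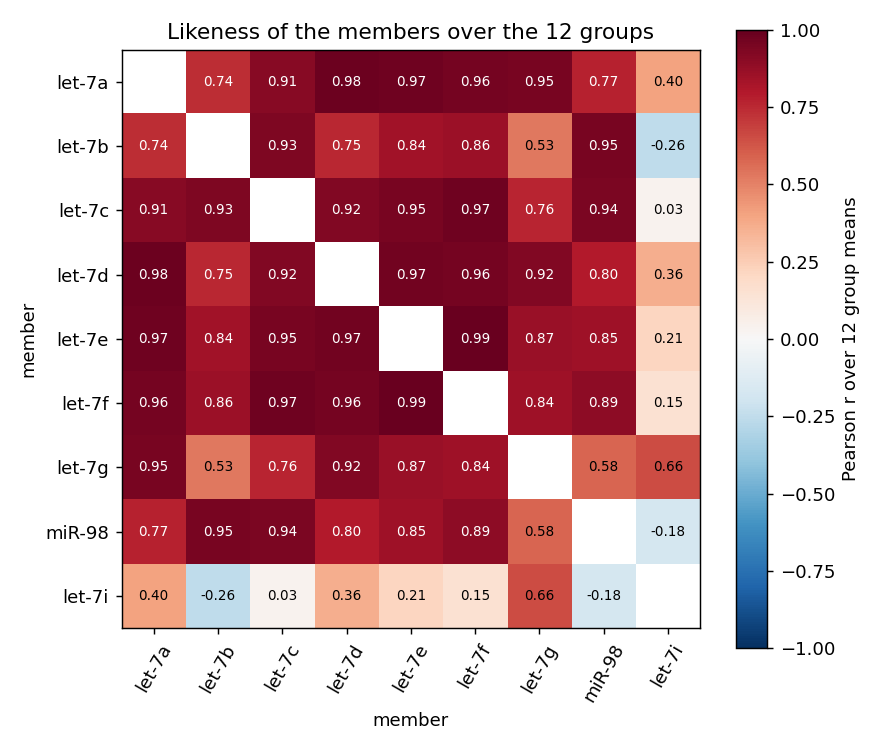
Pearson's r between the log2 intensities of each pair of members over the 12 group means (colour and number in each cell). The 8 members other than let-7i have r of 0.526 to 0.988 with each other, and let-7i has -0.257 to 0.655 with them.

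The 3 tested probes most like let-7i over the 12 group means were miR-146a (r = 0.944) and miR-146b (r = 0.929), known as restraints of inflammatory signalling, and miR-135b (r = 0.927). MiR-146a was detected on 8 of 8 arrays in 4T1, 2 in 4TO7 and 0 in 67NR. MiR-146b was detected on 8, 4 and 0 arrays of those lines, and miR-135b on 3, 0 and 0. Their r thus rests in part on arrays where they were not detected, and their changes with TGFb are not given. The 3 probes most like the mean of the other 8 members were miR-26b (r = 0.989), miR-30e (r = 0.963) and miR-15a (r = 0.96), all detected on all 24 arrays.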

How the data were processed

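MicroRNA was measured on 24 arrays with 2 dyes, 593 probes each, of which 558 measure mouse miRNAs and 35 are spike-in controls. The deposited intensity is, per the file headers, a linear relative intensity, sample dye over a synthetic reference, background-subtracted and not normalized between arrays, and each has a detection p-value. The authors' deposited value table holds log2 intensities of 338 probes, which equal log2 of the relative intensity plus 1 constant an array (largest deviation 5.9e-06). How the constants were set is not stated in any source used here. Log2 intensities were quantile normalized over the 558 probes in limma 3.58.1 (R 4.3.3). Probes were kept if detected (p under 0.05) on both arrays of a group and with a fail code on fewer than 12 arrays, which left 365. Groups were fitted with lmFit and eBayes (trend, 12 residual degrees of freedom), with two-sided p adjusted by Benjamini and Hochberg within each comparison. On simulated data for TGFb against inhibitor over all lines (365 probes), the fit called 98% of 100 changes of 0.2 and 1.82% of unchanged probes. The simulation drew independent noise around group means already normalized, with equal numbers of rises and falls. It therefore did not try the normalization, and comparisons within single lines were not read from it. The members, neighbours and markers were chosen with earlier results of these data known; all 9 members are named in every comparison, and probes most alike are the 3 with the highest Pearson r. Alternatives were other scalings, the authors' table, no filter, slide and set blocks, array weights and leaving out each array.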

Additional observations from a re-analysis of the deposited data

Results flagged for a closer look

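The response of let-7i to TGFb differed between the lines. Its change, TGFb minus inhibitor, was 0.44 greater in 4T1 than in 4TO7, 0.72 greater in 4T1 than in 67NR and 0.28 greater in 4TO7 than in 67NR, each past the test of that difference. Under 10 other processing settings the difference of 4T1 from 67NR was called in all 10 (0.72 to 1.21). That of 4T1 from 4TO7 was called in 8 (0.44 to 0.53 over the 10), and not without normalization between arrays (0.46, adjusted p = 0.31) or with spike-in scaling (0.48, adjusted p = 1). That of 4TO7 from 67NR was called in 6 of 10, and not with median scaling over the always-detected probes (0.27), spike-in scaling (0.72), no filter on dim probes (0.28) or the slide as a fixed block (0.31), at adjusted p of 0.064 to 0.086. The cause was not tested.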

How the results depend on the processing

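Of 46 member values called, those with the same direction and still called numbered 46 of 46 without the filter on dim probes and with the slide as a random block, 45 with the authors' table and with array weights, 44 and 43 with median scaling over all probes and over probes detected on all arrays, 42 with the replicate block, 37 with the slide as a fixed block, 32 without normalization and 16 with spike-in scaling. The number of members called, TGFb minus inhibitor, was 1 over all lines (7 in the quantile-normalized fit), 1 in 4T1 (5), 0 in 4TO7 (5) and 0 in 67NR (3) with spike-in scaling. Without normalization it was 1 in 4T1, 1 in 4TO7 and 6 in 67NR. In 67NR it was 6 with median scaling over all probes and 5 with the authors' table or array weights, and in 4T1 it was 2 with the slide as a fixed block. For rigid minus compliant over all lines it was 0 (1) without normalization, with spike-in scaling and with the slide as a fixed block. For 4TO7 minus 67NR it was 3 (9) with spike-in scaling. For 4T1 minus 4TO7 it was 4 (7) with the slide as a fixed block, and also 4 with the replicate block. For the F test of the TGFb response it was 2 (1) without normalization. Signs turned for let-7e in 4TO7 (0.01, TGFb minus inhibitor) and let-7d in 4TO7 minus 67NR (-0.04) with spike-in scaling, and in 4T1 minus 4TO7 for let-7b and miR-98 without normalization (0.03 and 0.04) and with spike-in scaling (0.11 and 0.12). With spike-in scaling the members' median, TGFb minus inhibitor, turned to 0.04 in 4T1 and 0.01 in 4TO7. In 67NR that median was -0.21 in the quantile-normalized fit, -0.41 with spike-in scaling and -0.4 without normalization. The falls in 67NR thus lost their calls with spike-in scaling though their median grew. The cause was not tested. Let-7i minus the other 8 was 0.56 to 0.59 over all lines and 0.89 to 0.96 in 4T1 under the 10 settings. It was 0.52 to 0.57 in 4TO7 and 0.22 to 0.26 in 67NR. Scaling by 1 constant an array cancels in this difference, so such settings agree by construction. The filter, the random slide block, the replicate block and array weights left it at its quantile-normalized value. Its narrow range is therefore no test of its stability.

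Leaving out each of the 24 arrays gave 7 to 8 members called for TGFb minus inhibitor over all lines, 3 to 6 in 4T1, 4 to 6 in 4TO7 and 1 to 5 in 67NR. It gave 1 to 2 for rigid minus compliant over all lines, 0 in 4T1 and in 4TO7 and 0 to 1 in 67NR, 9 for 4T1 minus 67NR and for 4TO7 minus 67NR, and 6 to 7 for 4T1 minus 4TO7. It gave 1 in the F test of the TGFb response, 0 in that of rigidity and 0 for a TGFb response that differs with the microenvironment. Deviations of same-numbered sets correlated at -0.156 to 0.486 (median 0.251) in 18 pairs within lines, 11 of them above 0.1. Between lines, 48 pairs gave -0.334 to 0.329 (median 0.0648), 21 of them above 0.1. The quantile-normalized fit did not pair arrays by set number, so a set effect shared within a line stays possible. With the replicate block (set number within each line), 7 members were called for TGFb over all lines, 4 in 4T1, 5 in 4TO7 and 4 in 67NR. The number of arrays and the signal over background limit all values.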
